A study of Homo sapiens and Mus musculus with 9 samples.

Results

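The human ribosomal DNA repeat encodes the long precursor RNA from which 18S, 5.8S and 28S ribosomal RNA are cut, and 19 of the 3706 peaks in the human lists of this eCLIP study of the pregnane X receptor (PXR) lay in it. A peak was counted as a repeat site when it lay on the unlocalised chromosome 22 scaffold chr22_KI270733v1_random (hg38) or when its summit fell inside a RefSeq gene whose symbol begins with RNA45SN. The rule used position only and no measured value. It found 9 of 1557 peaks in the HepG2 list, 2 of 46 in the KO-named LS174T list and 8 of 2103 in the WT-named LS174T list. Of the 19, 17 lay on the scaffold and 2 in RNA45SN3 on chromosome 21, and all 19 were on the plus strand, on which 18S precedes 28S.

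In eCLIP, RNA is fixed to protein with ultraviolet light (254 nm at 400 mJ/cm2, per the labels), trimmed with RNase I, immunoprecipitated and sequenced. HepG2 is a human hepatocellular carcinoma line, and its list stands for immunoprecipitates (IPs) made with an antibody to the HA tag, labelled as PXR IP in 2 libraries. LS174T is a human colorectal adenocarcinoma line. Its labelled libraries were a PXR IP from PXR knockout cells, a PXR IP from wild-type cells and a wild-type input without antibody. The 2 LS174T lists carry names that read knockout IP and wild-type IP, whereas the record ties the first to the wild-type PXR IP library and the second to the wild-type input. They are therefore called KO-named and WT-named, and no direction between genotypes, or between IP and input, is settled. Between the HepG2 and WT-named lists, cell line, antibody and perhaps IP against input differ together and cannot be told apart. Whether the knockout is 1 clone, how the tag was introduced into HepG2 and whether the HepG2 libraries were pooled are not given in the sources used here. Liver of mice with human PXR was also profiled, and its list was not used for the repeat. Each list stands alone without replicate values, so no spread between replicates could be set against any difference below, and the intervals given cover counting error only.

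RNA polymerase I transcribes the repeat in the nucleolus as one precursor. In order it holds the 5′ external transcribed spacer (5′ETS), 18S, internal transcribed spacer 1 (ITS1), 5.8S, internal transcribed spacer 2 (ITS2), 28S and a short 3′ external transcribed spacer (3′ETS). The spacers are cut out and degraded, while the mature RNAs make up most of the RNA of a cell and are a frequent background in CLIP libraries. The genome holds many near-identical copies, so a read from a stretch that copies share could be placed on more than one of them.

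The scaffold carries a full copy and the beginning of a further one. The full copy, RNA45SN4, spans 122273 to 135645, with 18S (RNA18SN4) at 125931 to 127799, 5.8S (RNA5-8SN4) at 128877 to 129032 and 28S (RNA28SN4) at 130204 to 135280. The further copy holds the pseudogenes RNA18SP4 (171012 to 172880) and RNA5-8SP9 (173956 to 174111). These lay 45081 and 45079 bp beyond their counterparts in RNA45SN4. The next pseudogene, LOC124905332, began at 175307, 45103 bp beyond the start of RNA28SN4. The gene table lists these genes under chromosome 22 without a scaffold name, and they were set on the scaffold here from those matching spacings. The start of the precursor in the RNA18SP4 copy is not annotated, so its 5′ETS sites are given by their distance to 18S.

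The 5′ETS is annotated with microRNAs, and the mature sequence of one is shown because the 5′ETS peaks called in HepG2 but not in LS174T overlapped the matching stretch by their distance to 18S. The hairpin gene MIR3648-1 lies in RNA45SN2 on chromosome 21 (8208473 to 8208652), from 1158 to 979 bases before 18S. MIR10396B lies in RNA45SN1, from 552 to 502 bases before 18S, and no repeat peak reached that stretch. The sequence is from RefSeq (GRCh38.p14, entry MIR3648-2, chromosome 21, 8987026 to 8987046, plus strand), 5′ to 3′, with the seed at bases 2 to 8 in capitals.
hsa-miR-3648: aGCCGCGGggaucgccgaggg
Sequence of the repeat itself was not used here.

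The end of 28S carried the deepest peak of all 3 human lists. The peak at 135085 to 135310 held 27958 reads in the HepG2 list, the peak at 135087 to 135310 held 1984 reads in the KO-named list, and the peak at 135085 to 135310 held 76143 reads in the WT-named list. Reads are those stacked at the summit, worked out from the deposited fold and p-value, and the HepG2 and WT-named values are approximate. The stack ranked first by reads among 1557, 46 and 2103 peaks, and was 5.12, 2.54 and 3.18 times as deep as the deepest peak outside the repeat. In each list that other peak lay in RNR2, the large ribosomal RNA of mitochondria. The summit stood 1 base before the last base of 28S in the HepG2 and WT-named lists and 81 bases before it in the KO-named list, and each peak ran 30 bases into the 3′ETS.

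The width of the peaks bears on where those reads began. The deposited values could be solved with a read extension of 200 bp, which leaves 27 start positions for the HepG2 stack, 25 for the KO-named stack and 27 for the WT-named stack. If reads were lengthened downstream without a shift, they began between 135085 and 135111 in the HepG2 and WT-named lists, which is 195 to 169 bases before the end of 28S, and between 135087 and 135111 in the KO-named list. The settings of the caller are not given in the sources used here, so the place of each site is known to within about 200 bases.

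Most of the rest of 28S was nearly empty. The caller's background for this peak counts reads of the same strand within 5000 bp on either side, a window that took in 5002 of the 5077 bases of RNA28SN4 for the HepG2 and WT-named lists and all 5077 for the KO-named list. It held 27962 reads in HepG2, 1984 in the KO-named list and 76150 in the WT-named list. That left 4 reads outside the summit in HepG2, 0 in the KO-named list and 7 in the WT-named list, so the stack took 99.99%, 100% and 99.99% of the reads over 10000 bp. The HepG2 window began at 130279 and missed the first bases of 28S. Another HepG2 window, 123631 to 133631, held 251 reads, against 180 in the one from 119895 to 129895. Reads outside any called HepG2 peak thus lay between 129895 and 130279, at the end of ITS2 or the first bases of 28S.

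**Figure D1:**
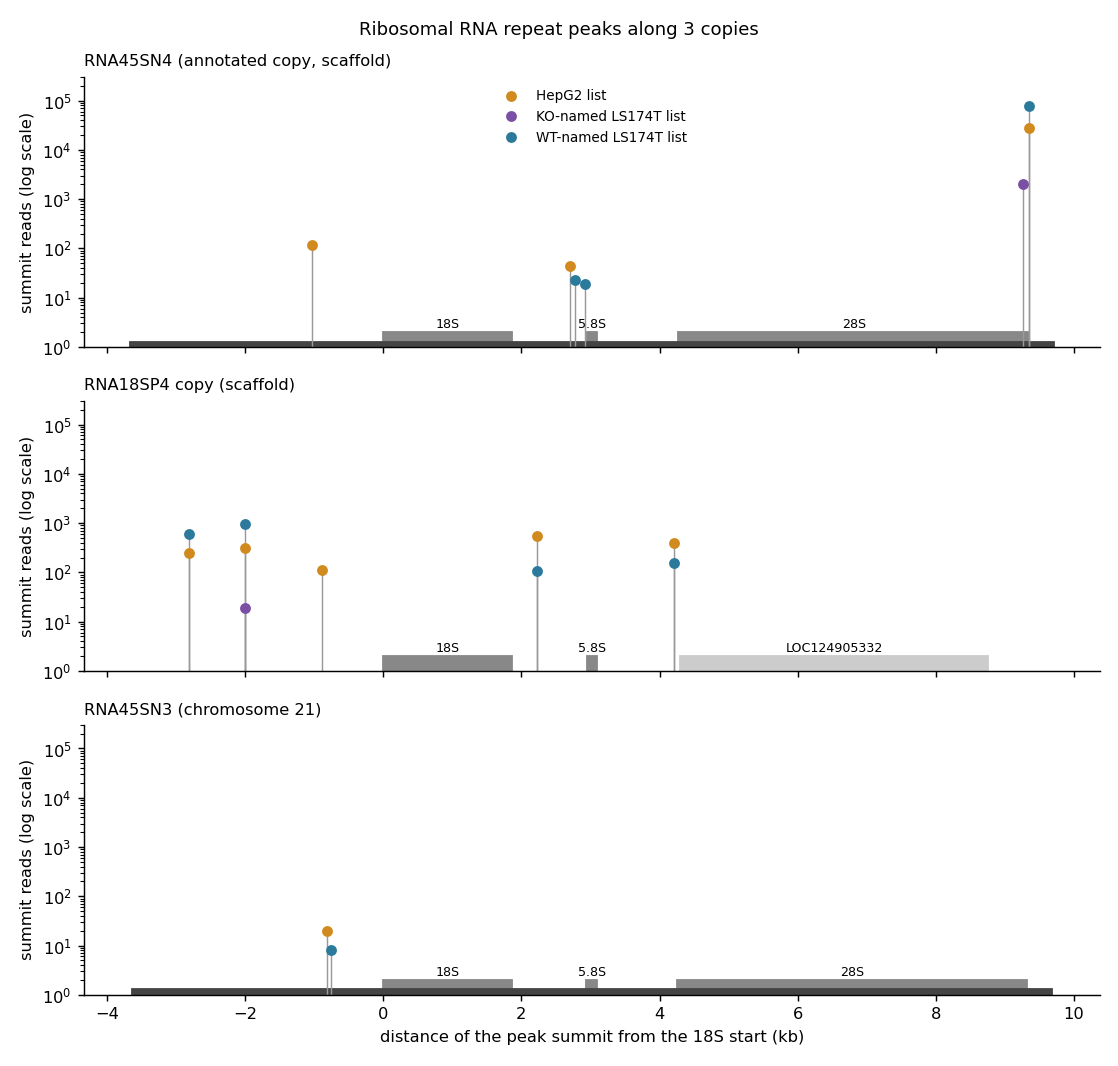
Summit reads of the 19 repeat peaks (vertical axis, log scale) against the distance of the summit from the start of 18S in kilobases, for RNA45SN4, the RNA18SP4 copy and RNA45SN3. Points are coloured by list, grey boxes mark 18S, 5.8S and 28S (light grey for LOC124905332), and the dark bar is the annotated precursor. The 28S end stands above all other sites, with 27958 reads in HepG2, 1984 in the KO-named list and 76143 in the WT-named list, and no summit lies in 18S or 5.8S.

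No list had a peak with its summit in 18S, 5.8S or the 3′ETS. For 18S of RNA45SN4, windows that covered the whole gene limited the reads away from the called summits. The limit was 21 reads in HepG2 (window 119895 to 129895) and 71 in the WT-named list (window 123711 to 133711). The HepG2 window most like that of the WT-named list, 123631 to 133631, left 92 reads, so these limits do not rank the lists. For RNA18SP4 such windows left at most 17 reads in HepG2, 11 in the KO-named list and 0 in the WT-named list. The window behind that 0 ran from 170227 to 180227 and held 262 reads, as many as the ITS1 and ITS2 summits together. No read was thus left for LOC124905332 outside these summits in the WT-named list. The ITS2 peak itself ran into LOC124905332, by 39 bases in the WT-named list and 35 in HepG2. The limits at 5.8S of RNA45SN4 were 21 reads in HepG2, against 71 in the WT-named list. One WT-named peak, at 128786 to 128985 with 19 reads, had its summit in ITS1 27 bases before 5.8S and covered 109 of its 156 bases. Whether reads that match several copies were kept or dropped is not given in the sources used here, and its part in the low limits was not tested.

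Repeat sites took up a large share of the reads at peaks. Their summed summit reads made up 37.6% of 79229 in HepG2 (95% Clopper-Pearson interval 37.2 to 37.9%), 37.0% of 5417 in the KO-named list (35.7 to 38.3%) and 42.4% of 183887 in the WT-named list (42.2 to 42.6%). By number of peaks the shares were 0.578% (interval 0.265 to 1.09%), 4.35% (0.531 to 14.8%) and 0.380% (0.164 to 0.748%) in the same order. The 28S end supplied 93.9%, 99.1% and 97.6% of the repeat reads. Without it the repeat held 1809 reads in HepG2 (2.28% of the list), 19 in the KO-named list (0.351%) and 1857 in the WT-named list (1.01%). With window reads in place of summit reads, the repeat shares were 15.3% in HepG2, 9.47% in the KO-named list and 13.9% in the WT-named list. In that measure each peak brings its whole window, and the WT-named windows in mitochondrial RNR2 hold up to 87958 reads each. With mitochondrial peaks left out the KO-named share was 64.7%.

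**Figure D2:**
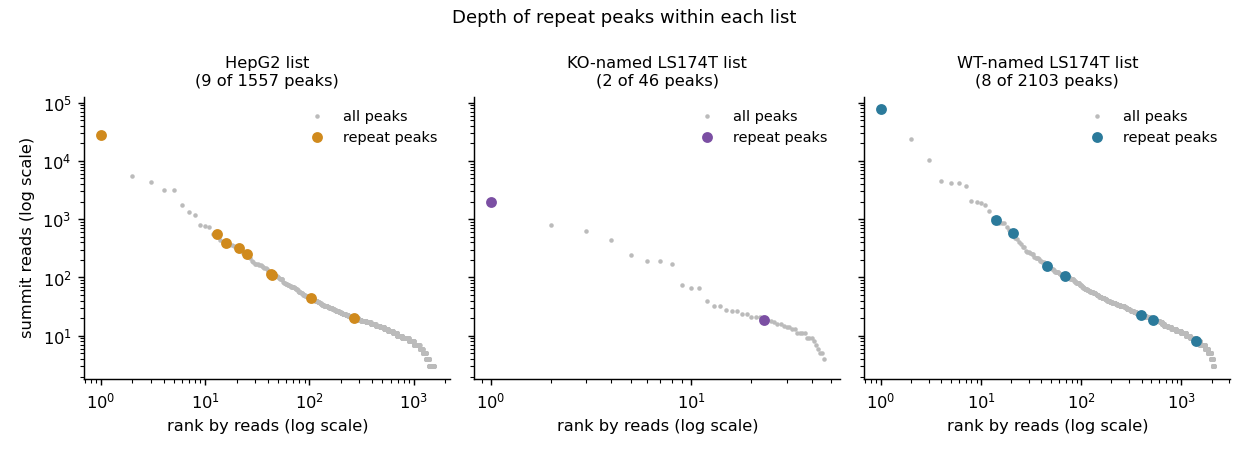
Summit reads of every peak (vertical axis, log scale) against its rank within the list (horizontal axis, log scale), with repeat peaks in colour and all peaks in grey. The 28S end ranks first in each panel. Among the 50 deepest peaks are 7 of 9 HepG2 repeat peaks (of 1557 peaks in all) and 4 of 8 WT-named ones (of 2103). The KO-named list holds only 46 peaks, and its other repeat peak ranks 23 with 19 reads, the median of that list.

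Most repeat sites recurred between HepG2 and LS174T. Of the 9 HepG2 sites, 7 overlapped a WT-named peak on the same strand, against 38.5% of all HepG2 peaks, and 7 of the 8 WT-named sites overlapped a HepG2 peak, against 28.6% of all WT-named peaks. These shares are a description, and whether they follow from the depth of the repeat sites was not tested. With the KO-named list, 2 of the 9 HepG2 sites overlapped a peak, against 2.38% of all HepG2 peaks, and 2 of the 2 KO-named sites overlapped a HepG2 peak, against 78.3% of all KO-named peaks. Between HepG2 and WT-named, the summits of the shared sites differed by 0 to 4 bp at the 28S end, at the far and middle 5′ETS sites and at ITS1 and ITS2 of the RNA18SP4 copy, by 48 bp in RNA45SN3 and by 80 bp at ITS1 of RNA45SN4.

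The 5′ETS carried sites at 3 distances ahead of 18S. The 5′ETS begins the precursor and holds the earliest cleavage sites of ribosomal RNA processing. The far site, 2804 bases before 18S in HepG2 (168103 to 168324) and 2808 in WT-named LS174T (168102 to 168329), held 249 reads in HepG2, against 588 in the WT-named list. The middle site, with its summit 2001 bases before 18S in HepG2, 2007 in the KO-named list and 2001 in the WT-named list, held 319 reads in HepG2 (168840 to 169064), 19 in the KO-named list (168847 to 169165) and 957 in the WT-named list (168830 to 169182). Both were deeper in the WT-named list, with HepG2 over WT-named ratios of 0.423 (interval 0.364 to 0.492) at the far and 0.333 (interval 0.293 to 0.379) at the middle site. At the 28S end this ratio was 0.367 (interval 0.362 to 0.372). The WT-named list was thus 2.36 times as deep at the far site, 3 times at the middle site and 2.72 times at the 28S end, while the median HepG2 over WT-named ratio over all 600 shared sites was 0.909 (quartiles 0.537 and 1.38). Of those 600 sites, 85 had a ratio at or below that of the 28S end. With window reads in place of summit reads the far and middle ratios were 0.640 and 0.718, but these windows also held other repeat sites.

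Nearer to 18S lay the sites whose peaks overlap the MIR3648 stretch by position. On RNA45SN4 the HepG2 peak at 124755 to 125063 held 115 reads and reached from 1176 to 868 bases before 18S, and by distance to 18S this stretch includes the interval that MIR3648-1 occupies in RNA45SN2. On the RNA18SP4 copy the HepG2 peak at 169953 to 170152 held 112 reads and reached from 1059 to 860 bases before 18S, which overlaps a part of that interval. The length of the 5′ETS differs by up to 27 bases among the 5 RNA45SN genes and is not annotated for the RNA18SP4 copy. With sites placed only to within about 200 bases and a hairpin gene of 180, the reads cannot be assigned to the MIR3648 stretch. Neither site was called in the WT-named list, whose windows left at most 71 reads at the site on RNA45SN4 and at most 86 at the one on the RNA18SP4 copy. By these counts HepG2 was at least 1.62 times as deep at the first and at least 1.30 times at the second, between these lists. Both bounds leave counting error out, and no interval was computed for them. No summit fell in RNA45SN1 or RNA45SN2 in any list. Peaks in RNA45SN3 on chromosome 21, 914 to 714 bases before 18S in HepG2 (8391752 to 8391952) and 913 to 704 for WT-named (8391753 to 8391962), held 20 reads in HepG2, against 8 in the WT-named list. Their ratio was 2.50 with a wide interval of 1.05 to 6.56.

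ITS1 and ITS2 were deeper in HepG2. ITS1 separates 18S from 5.8S, and its cleavage parts the precursors of the small and the large subunit. ITS2 separates 5.8S from 28S and is removed late. On the RNA18SP4 copy the ITS1 site, 362 bases after 18S in HepG2, held 552 reads there (173202 to 173424) and 107 in the WT-named list (173205 to 173404). This ratio of 5.16 (interval 4.19 to 6.41) was exceeded at 8 of the 600 shared sites. With window reads it was 1.07, but these windows also held the middle 5′ETS and ITS2 sites. The ITS2 site, with its summit 80 bases before LOC124905332, held 398 reads in HepG2 (175109 to 175341), against 155 in the WT-named list (175112 to 175345), a ratio of 2.57 (interval 2.13 to 3.11). On RNA45SN4 a weaker ITS1 site near 5.8S held 44 reads in HepG2 (128517 to 128722), against 23 in the WT-named list (128520 to 128721), a ratio of 1.91 (interval 1.13 to 3.32). The WT-named peak beside it, at 128786 to 128985, had no HepG2 peak, but the HepG2 windows leave room for 21 reads against its 19, so a difference there was not detectable at this depth.

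**Figure D3:**
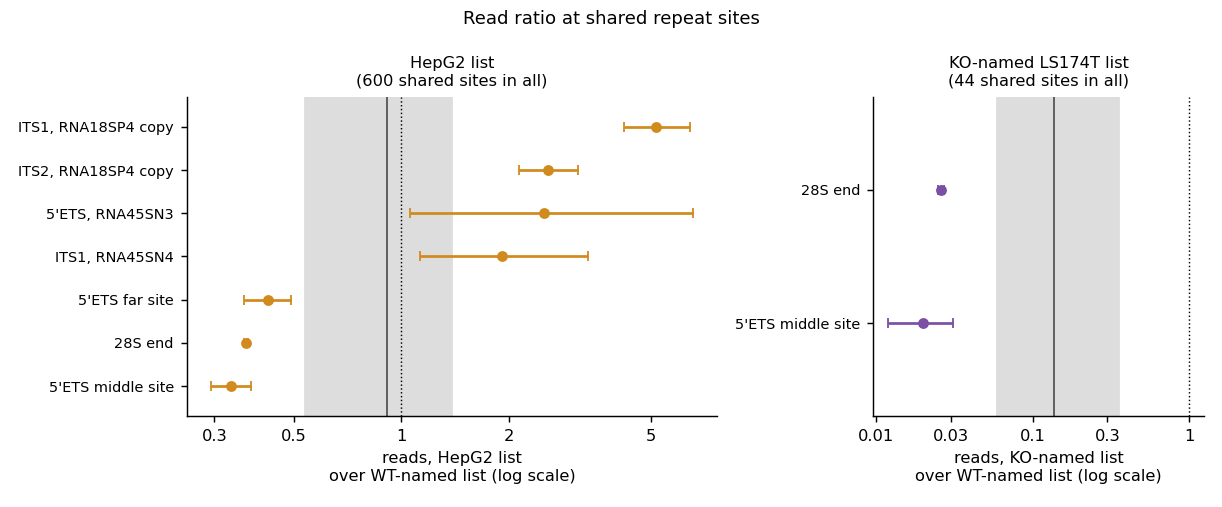
Reads in the HepG2 list (left panel) or KO-named list (right panel) over reads in the WT-named list at each shared repeat site, on a log axis. Points are ratios with 95% intervals for counting error, the grey line and band are the median and quartiles over all shared sites, and the dotted line marks equal reads. In HepG2 the internal spacer sites lie above 1, at 5.16, 2.57 and 1.91. The 5′ETS site in RNA45SN3 also lies above 1, at 2.50 on 20 and 8 reads. The 28S end and the far and middle 5′ETS sites lie between 0.333 and 0.423.

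The reads at called spacer summits were spread differently over the regions in the HepG2 and WT-named lists. Reads outside called peaks are not in these shares. Outside the 28S end, the 5′ETS held 45.1% of 1809 repeat reads in HepG2 (interval 42.7 to 47.4%) and 83.6% of 1857 in the WT-named list (interval 81.9 to 85.3%). ITS1 held 32.9% in HepG2 (30.8 to 35.2%), against 8.02% in the WT-named list (6.83 to 9.35%), and ITS2 held 22% in HepG2 (20.1 to 24.0%), against 8.35% in the WT-named list (7.13 to 9.70%). The intervals do not overlap in any of the 3 regions, but they cover counting error only and reads may include PCR copies. The WT-named summits at 128711 and 128850 lie 139 bp apart and may share reads. With the shallower of them left out, ITS1 held 7.07% of the WT-named spacer reads.

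**Figure D4:**
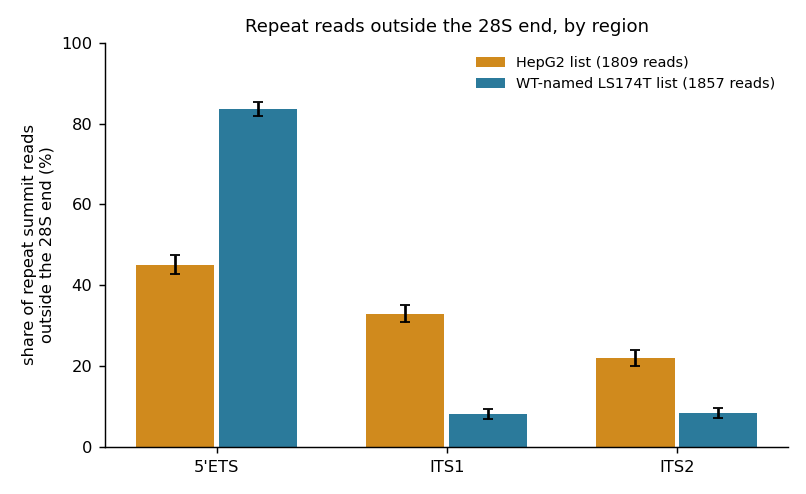
Share of repeat summit reads outside the 28S end (percent) that fell in the 5′ETS, ITS1 and ITS2, for the HepG2 list (1809 reads) and the WT-named LS174T list (1857 reads), with 95% Clopper-Pearson intervals for counting error. The 5′ETS takes 45.1% in HepG2, against 83.6% in the WT-named list.

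The KO-named list held only the 28S end and the middle 5′ETS site. Both of its repeat peaks overlapped a WT-named peak, as did 95.7% of all KO-named peaks, and 2 of the 8 WT-named repeat peaks overlapped a KO-named peak, against 2.14% of all WT-named peaks. The 28S end held 1984 reads in the KO-named list, against 76143 in the WT-named list, a ratio of 0.0261 (interval 0.0249 to 0.0272). The middle 5′ETS site held 19 reads in the KO-named list, against 957 in the WT-named list, a ratio of 0.0199 (interval 0.0119 to 0.0312). The intervals overlap, so no difference between these sites was detectable. Over all 44 shared sites the median ratio was 0.137 (quartiles 0.0597 and 0.355), and 8 of them had a ratio at or below that of the 28S end. Divided by the median over 19 shared protein-coding sites, the ratios were 0.0932 at the 28S end and 0.0710 at the middle site. Sharing required a KO-named peak, the shallowest of which held 4 reads, while the median WT-named peak held 11. Shallow WT-named sites could thus enter only at higher ratios, which pushes these medians up. Whether the 28S end lay below other sites therefore cannot be told from them.

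The sites missing from the KO-named list could still be bounded. The window around its middle site, 164005 to 174005, held 30 reads, of which 11 lay away from the summit. The far 5′ETS site thus had at most 11 reads in the KO-named list, against 588 in the WT-named list, a ratio of at most 0.0187. At the ratio of the 28S end 15.3 reads would have stood there. Counts this small carry wide counting error, and whether 11 differs from 15.3 was not tested. The ITS1 site of the RNA18SP4 copy had at most 11 reads in the KO-named list, against 107 in the WT-named list, where the ratio of the 28S end would have given 2.79 reads, fewer than the 4 of the shallowest KO-named peak. A difference there was not detectable at this depth.

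Outside the rule, other repeat fragments on chromosome 21 also carried peaks. Near the pseudogene RNA18SP5 (18S-like, 8253842 to 8255704) a peak from 806 to 594 bases before 18S held 44 reads in HepG2, and one from 807 to 594 bases before it held 43 in the WT-named list. A further HepG2 peak with 39 reads (8257275 to 8257479) had its summit in ITS2, 428 bases after RNA5-8SP10, where the ITS2 site of the RNA18SP4 copy had its summit 1116 bases after 5.8S. A HepG2 peak with 5 reads (8986901 to 8987100) covered the mature sequence of MIR3648-2. In HepG2 a peak of 12 reads had its summit in RNA5-8SP2 on chromosome 16, the only one of 553 RefSeq genes with symbols beginning RNA5S, RNA5-8S, RNA18S or RNA28S and lying off the scaffold to hold a summit in any human list.

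Sites in mitochondrial ribosomal RNA were among those with the pattern nearest to the 28S end. Among the 36 sites found in all 3 human lists, likeness was the distance between pairs of log2 ratios (KO-named over WT-named and HepG2 over WT-named). The middle 5′ETS site was nearest, at 0.42. A site in RNR2 (M, 1522 to 2712) followed at 0.76, with 5464 reads in HepG2, 780 in the KO-named list and 23957 in the WT-named list, and then RNR1 at 0.89, with 1782 in HepG2, 193 in the KO-named list and 4093 in the WT-named list. An unannotated site on chromosome 12 (124567600 to 124567799) stood at 0.91, with 5 reads in the KO-named list. The telomerase RNA TERC stood at 0.94, with 9 KO-named reads, and the middle 5′ETS site rested on 19. Counts this small carry wide counting error, and the order of these sites was not tested. The other RNR2 site (M, 2784 to 3283) was farther, at 1.24. These distances describe 3 lists and say nothing of shared control.

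Peaks in genes that make and process ribosomal RNA were counted beside those of all nuclear protein-coding genes, of which 4.9% had a peak in HepG2, 0.0848% in the KO-named list and 6.43% in the WT-named list. Of 21 genes for RNA polymerase I subunits and factors, 1 had a peak in HepG2 (4.76%), 0 in the KO-named list and 3 in the WT-named list (14.3%). They were POLR2E, a subunit that the nuclear RNA polymerases share, with 9 reads in HepG2 and 9 for WT-named, and for WT-named alone POLR2L (13 reads), another shared subunit, and TAF1D (32 reads), part of the polymerase I selectivity factor. Of 42 processing genes, 2 had a peak in HepG2 (4.76%), 0 in the KO-named list and 6 in the WT-named list (14.3%). Those in HepG2 were MKI67 (6 reads) and NHP2 (11), and those in the WT-named list were nucleolin (NCL, 14 reads), RRP1 (10), NOLC1 (8), NOP10 (8), BOP1 (7) and IMP3 (6). The HepG2 shares were near those of all genes, and the WT-named shares rest on 3 and 6 genes and were not tested. Of 16 RNAs that act in processing, 1 had a peak in each list, against 0.333%, 0.0833% and 0.25% of all 1200 small nucleolar RNA genes and RMRP in HepG2, the KO-named and the WT-named list. It was RMRP, the RNA of RNase MRP, which cuts ITS1, with 3179 reads in HepG2, 21 in the KO-named list and 1768 in the WT-named list. Its HepG2 count was higher than its WT-named count, as at 241 of the 600 sites shared by these lists. U3 (SNORD3A) and the other listed small nucleolar RNAs had no peak. A link between RMRP and the spacer sites was not tested.

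For the cell labels, peaks were found in 3 of 10 colon epithelium markers for HepG2, 0 of 10 for the KO-named list and 7 of 10 for the WT-named list, against the 4.9%, 0.0848% and 6.43% of all nuclear protein-coding genes. None of 10 hepatocyte markers, ALB and APOA1 among them, had a peak in any human list. The colon markers with a peak in HepG2 were TFF1 (38 reads), CDH17 (15) and EPCAM (11). The marker peaks thus neither bear out the HepG2 label nor settle that it is wrong. The shares over all genes may not hold for marker genes, so a count of 0 of 10 cannot be judged from them. What these counts say of any label was not tested. The lists hold called peaks only, so the levels of these RNAs are not known.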

How the data were processed

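The 4 peak lists analysed here were deposited by the authors without values per library. The submitters' processing notes name cutadapt, BWA and MACS2 with the builds hg38 and mm10, and nothing used here gives their settings. The names of the deposited peaks show that each strand was called by itself. Each row holds the authors' score, fold enrichment (a ratio over local background), −log10 p-value and −log10 q-value, and the deposited score equalled 10 times −log10 q cut to a whole number.

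Reads at the summit and in the 10000 bp background window were solved for each peak by inverting MACS2's Poisson formula on the deposited fold and −log10 p-value (background steps of 0.02, 200 bp extension, SciPy 1.17.1). A unique whole-number solution was found for 5875 of 5884 peaks (99.8%), and the other 9 are approximate. For the approximate 28S end stacks, window minus summit reads did not change when the summit was moved by 5 reads. On simulated peaks 1557 of 1557 were recovered for HepG2, 46 of 46 for the KO-named and 2103 of 2103 for the WT-named list. The simulated peaks were written with the same formula and background steps. Their recovery therefore checks the solving only and cannot check those settings. A limit on reads in a region is the window's reads minus those at called summits in it.

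Positions are 1-based on hg38, and genes come from RefSeq (GRCh38.p14) spans without exons or strand. Peaks of different lists counted as shared when they met by 1 bp or more on one strand. Shares carry Clopper-Pearson 95% intervals, and ratios carry exact conditional binomial intervals. With 1 list a group no test was possible. Named sites were all repeat peaks, the deepest other peak of each list, the 5 sites nearest in pattern to the deepest repeat site, and gene list members with a peak. Members and lists were chosen with earlier results of these data known.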

Additional observations from a re-analysis of the deposited data

How the results depend on the processing

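The number of repeat peaks in each list stayed within 1.5 times under a minimum −log10 q of 5, any overlap with an RNA45SN gene, or scaffold peaks only. The number of shared repeat sites did not change with a wider overlap in place of 1 bp (50% of the shorter peak) or with strand ignored. The share of reads in the repeat moved with the measure. It was 15.3% for HepG2, 9.47% in the KO-named list and 13.9% in the WT-named list with window reads, 39.0% for HepG2 and 43.1% for the WT-named list among peaks with −log10 q of at least 5, and 45.3% for HepG2, 64.7% for the KO-named list and 56.5% for the WT-named list without mitochondrial peaks. At the 28S end, scaling to shared protein-coding sites gave 0.393 for HepG2 over WT-named and 0.0932 for KO-named over WT-named. The KO-named scale rests only on sites called in that list, which favours higher ratios. With window reads the ITS1 ratio of the RNA18SP4 copy was 1.07 and the ITS2 ratio 3.69. No ratio changed direction, but these settings could show little. At the 28S end window and summit reads were nearly the same. On the RNA18SP4 copy the windows took in neighbouring repeat sites, so their ratios mix sites. No paired analysis was possible because each list is 1 column without replicate values, so no replicate could be left out either. Positions are limited to about 200 bp by read extension, and ratios compare lists, not conditions.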
